A study of Mus musculus with 6 samples.

Results

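The inducible heat shock and cochaperone genes examined here are 10 mouse genes, chosen by name: Hspa1a, Hspa1b, Hspa8, Hsph1, Hsp90aa1, Hsp90ab1, Dnaja1, Dnajb1, Hspb1 and Bag3. Their RNA was measured in whole liver on 6 Affymetrix arrays. For each gene the array row that named it alone was taken, and of several such rows the brightest on average over the 6 arrays was kept. By this rule 8 of the 10 genes had a value, out of 22180 genes in all. Dnaja1 lay only in a row that also names Mir207, and Hsp90ab1 was not analysed here. The arrays compared Pfn2-/- mice, which lack profilin 2, an actin-binding protein, with wild-type mice, 3 per genotype, all of strain C57BL/6. The labels call the 3 samples of a genotype independent biological replicas and list no treatment for any of them, and they do not state how the Pfn2 allele was made, the sex, the housing or the time of dissection. The mice were 9 months old in replicate 1, 8.5 months in replicate 2 and 8 months in replicate 3, for both genotypes, so each age was represented by 1 array per genotype. All values are log2 expression values, and every difference is Pfn2-/- minus wild type on that scale.

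Heat shock proteins are molecular chaperones that bind unfolded proteins and help them fold, hold them in solution or pass them on for degradation. Heat, oxidants, fever and other proteotoxic stress free the transcription factor HSF1, which binds heat shock elements, arrays of the letters GAA and their complement TTC, in the promoters of inducible chaperone genes. Constitutive relatives such as Hspa8 and Hsp90ab1 serve the folding of newly made proteins in unstressed cells. In liver, a tissue with a high output of protein, heat shock genes also follow the daily cycle of body temperature and feeding.

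The promoters of the near-identical pair Hspa1a and Hspa1b, and of Hspb1 and Hsph1, are shown because each holds a pair of facing heat shock units within 250 bases upstream of an annotated start. Paired units were searched as GAANNTTC and TTCNNGAA, which read the same on either strand and overlap each other where units follow in a row, and the letters of each match are in capitals. The sequences are from RefSeq on GRCm38.p6, 5′ to 3′ on the strand of the gene.
Hspa1a: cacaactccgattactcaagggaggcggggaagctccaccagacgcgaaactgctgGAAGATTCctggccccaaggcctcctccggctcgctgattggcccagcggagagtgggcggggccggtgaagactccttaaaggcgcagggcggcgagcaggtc
Hspa1b: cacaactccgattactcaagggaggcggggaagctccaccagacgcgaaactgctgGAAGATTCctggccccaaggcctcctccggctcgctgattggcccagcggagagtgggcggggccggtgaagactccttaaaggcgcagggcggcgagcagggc
Hspb1: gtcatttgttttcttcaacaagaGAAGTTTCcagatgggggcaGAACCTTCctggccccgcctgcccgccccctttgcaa
Hsph1: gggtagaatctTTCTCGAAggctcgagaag
The Hspa1a stretch is chr17:34972157-34972316 on the minus strand and the Hspa1b stretch is chr17:34959239-34959398 on the minus strand, both covering bases -160 to -1 from the start. Over the 250 bases upstream the copies matched at 247 positions, and the single match of either lay at bases -104 to -97. The Hspb1 stretch, chr5:135887779-135887858 on the plus strand, holds 2 matches, at bases -117 to -110 and -97 to -90. The Hsph1 stretch, chr5:149636351-149636380 on the minus strand, is taken from 1 of its 2 annotated starts. Of the 7 genes with a promoter sequence, 5 held a match upstream, the fifth being Dnaja1, while Dnajb1 and Bag3 held none upstream and Bag3 had one at bases 43 to 50 after its start. Over all 32851 promoter windows 12.8% held a match of either form, 6.69% GAANNTTC and 7.17% TTCNNGAA. These shares are per window, while the 5 of 7 is counted per gene over all its windows. Dnaja1 has 3 windows and Hsph1 and Dnajb1 have 2 each, so the 2 counts are not on the same footing. A match describes the letters and is not a measured binding site.

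Of the 7 inducible heat shock genes, 5 stood high in 1 of the 3 Pfn2-/- livers and not in the other two, while Hsp90aa1 was above wild type in all 3 and Hspb1 was highest in another liver. Pfn2-/- replicate 3 had the highest value of the 6 arrays in 6 of the 8 genes measured, where it was highest in 17.8% of all genes. In 5 of the 8, namely Hspa1b, Hspa1a, Bag3, Hsph1 and Dnajb1, it lay 0.50 or more above the next array, where 0.451% of all genes did so. No gene of the set stood 0.50 or more above, or below, the rest in any of the other 5 arrays, where 0.14% to 0.505% of all genes stood that far above the rest. Taken over the 7 inducible genes, the median value relative to the wild-type mean was -0.16, -0.22 and 0.96 in Pfn2-/- replicates 1, 2 and 3. It was -0.02, 0.11 and -0.09 in wild-type replicates 1, 2 and 3. Pfn2-/- replicates 1 and 2 therefore lay slightly below the wild-type arrays in this median, and replicate 3 lay far above all of them.

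**Figure D1:**
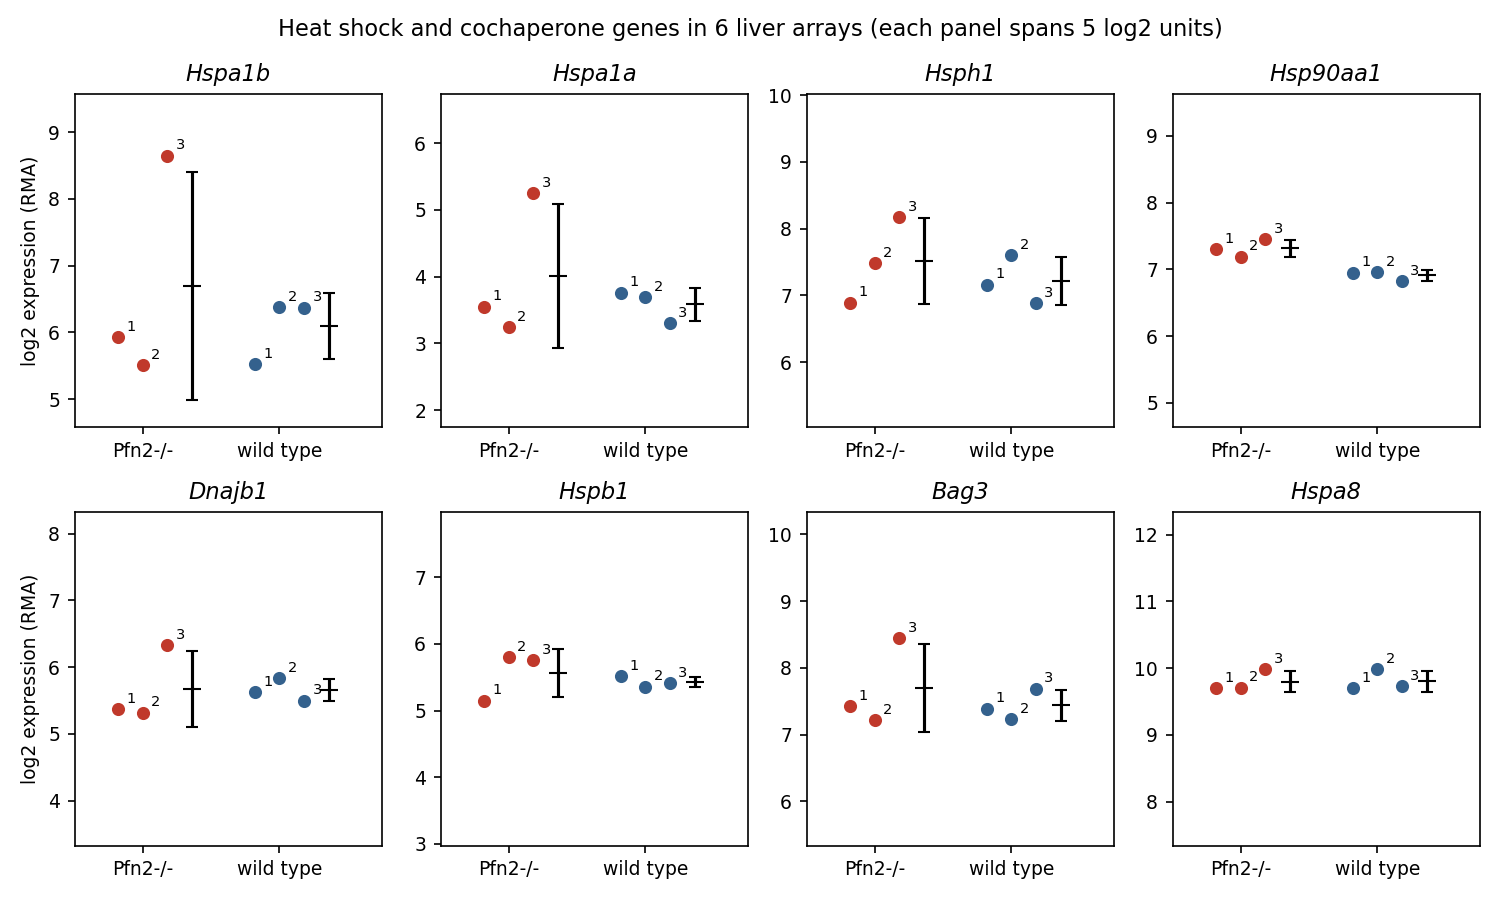
Log2 expression of the 8 heat shock and cochaperone genes in each array. Points are single arrays, numbered by replicate, with Pfn2-/- in red and wild type in blue, bars show the mean and SD of each genotype, and each panel spans the same height. Replicate 3 of Pfn2-/- is the highest point for 6 genes, most clearly for Hspa1b at 8.65, while Hsp90aa1 is the 1 gene with all Pfn2-/- points above all wild-type points.

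Hspa1b encodes the main stress-inducible cytosolic Hsp70. It lay at 5.93, 5.51 and 8.65 in Pfn2-/- replicates 1, 2 and 3, against 5.52, 6.38 and 6.37 in wild type. The first 2 Pfn2-/- livers were within or just below the wild-type range, and replicate 3 was 2.27 above the highest other array. Its value was 5.90-fold above the wild-type mean, a comparison of 1 array with 3 that has no test. The genotype means were 6.70 ± 1.70 in Pfn2-/- and 6.09 ± 0.49 in wild type (SD, n = 3 each). The difference of 0.61 had a 95% confidence interval of -0.88 to 2.10 and did not pass the test (limma, SE 0.67, adjusted p = 0.963). Without Pfn2-/- replicate 3 it was -0.37 (SE 0.27). The residual SD of 1.25 around the genotype means was at percentile 99.95 of all genes, whose median was 0.17.

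Hspa1a, the neighbouring copy on chromosome 17 whose protein is nearly the same, also stood high in Pfn2-/- replicate 3 alone, in a dim row. It lay at 3.55, 3.24 and 5.25 in Pfn2-/- replicates 1, 2 and 3 and at 3.76, 3.69 and 3.30 in wild type. Replicate 3 of Pfn2-/- stood 1.49 above every other array, and the other 5 lay close to the lower quartile of all rows, 3.51 to 3.57, so the size of this gap is not exact. The difference was 0.43 (SE 0.43, adjusted p = 0.958), and it was -0.19 without Pfn2-/- replicate 3. Probes of one copy can bind RNA of the other, so the share of each gene in these values is uncertain.

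Hspa8, the constitutive cytosolic Hsp70 that folds new proteins and uncoats clathrin vesicles, showed no such step. It lay at 9.70, 9.71 and 9.98 in Pfn2-/- replicates 1, 2 and 3, against 9.70, 9.98 and 9.73 in wild type. The highest value was shared by Pfn2-/- replicate 3 and wild-type replicate 2, and the groups spanned nearly the same range. The difference was -0.01 with a 95% confidence interval of -0.31 to 0.30 (SE 0.14, adjusted p = 0.997). The 3 further rows that name Hspa8 alone differed by -0.05 to 0.00. In these rows Pfn2-/- replicate 3 exceeded the next array by 0.01 to 0.10.

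The inducible Hsp70 was set against the constitutive one as a change within each array, Hspa1b minus Hspa8, relative to the wild-type mean of that quantity. It was -0.06, -0.49 and 2.38 in Pfn2-/- replicates 1, 2 and 3 and -0.47, 0.11 and 0.35 in wild type. The 5 arrays other than Pfn2-/- replicate 3 lay between -0.49 and 0.35, and both genotypes overlapped there. The mean was 0.61 ± 1.55 in Pfn2-/- and 0 ± 0.42 in wild type (SD, n = 3 each). An exact permutation test over samples, two-sided, gave p = 0.9, where 3 against 3 arrays cannot go below 0.1. Without Pfn2-/- replicate 3 the difference was -0.27. In that replicate the other inducible genes exceeded the change of Hspa8 by 0.15 (Hspb1) to 1.49 (Hspa1a). The same comparison within the Hsp90 pair, Hsp90aa1 with Hsp90ab1, was not made because Hsp90ab1 was not analysed here.

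Hsph1, Dnajb1 and Bag3 encode proteins that work with Hsp70. Bag3, a nucleotide exchange factor that directs Hsp70 clients to selective autophagy, lay at 7.43, 7.22 and 8.45 in Pfn2-/- replicates 1, 2 and 3, against 7.39, 7.23 and 7.69 in wild type. Replicate 3 was 0.76 above the next array and 2.02-fold above the wild-type mean, while the other 2 Pfn2-/- values fell in or next to the wild-type range. The genotype difference was 0.26 (SE 0.28, adjusted p = 0.961), and -0.11 without that replicate. Hsph1, the Hsp110 exchange factor of Hsp70, lay at 6.89, 7.48 and 8.17 in Pfn2-/- and at 7.16, 7.60 and 6.88 in wild type. It varied in both genotypes, by 0.72 over the 5 arrays other than Pfn2-/- replicate 3, which stood 0.57 above them. Its difference was 0.30 (SE 0.29, adjusted p = 0.958), and -0.03 without that replicate.

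Dnajb1, the Hsp40 that delivers clients to inducible Hsp70 and stimulates its ATPase, lay at 5.37, 5.32 and 6.33 in Pfn2-/- replicates 1, 2 and 3. In wild type it lay at 5.63, 5.83 and 5.50. Both other Pfn2-/- livers were thus below every wild-type liver, and replicate 3 was above all of them by at least 0.50. The high and low values offset each other in the mean, and the difference was 0.02 (SE 0.25, adjusted p = 0.997). Without Pfn2-/- replicate 3 it was -0.31 (SE 0.15, adjusted p = 0.861).

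Hsp90aa1, the inducible cytosolic Hsp90, was the 1 gene of the set whose genotypes did not overlap. It lay at 7.30, 7.19 and 7.45 in Pfn2-/- replicates 1, 2 and 3 and at 6.95, 6.96 and 6.82 in wild type. All 3 Pfn2-/- livers were above all 3 wild-type livers, as were 5.09% of all genes. The means were 7.31 ± 0.13 in Pfn2-/- and 6.91 ± 0.08 in wild type (SD, n = 3 each), a 1.32-fold higher level. The difference of 0.40 (SE 0.12) had a 95% confidence interval of 0.13 to 0.68 and an unadjusted limma p of 0.009. It did not pass over all genes (adjusted p = 0.814). At an unadjusted p under 0.05 it was the 1 gene called of the 8, where 5.29% of all genes were called in either direction. Unlike Hspa1b, it did not rest on 1 liver: without Pfn2-/- replicate 3 the difference was 0.34 (SE 0.13, unadjusted p = 0.034), where 5.84% of all genes had an unadjusted p under 0.05.

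Hspb1, a small heat shock protein that holds unfolded proteins and binds actin filaments, lay at 5.15, 5.80 and 5.75 in Pfn2-/- replicates 1, 2 and 3. In wild type it lay at 5.51, 5.36 and 5.41. The Pfn2-/- values spread to either side of the wild-type ones, and replicate 2, not 3, was the highest. The difference was 0.14 (SE 0.18, adjusted p = 0.973). The second row of Hspb1 had a difference of -0.06, and Pfn2-/- replicate 3 was its lowest array at 3.82. The 2 rows of this gene therefore differed in sign.

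**Figure D2:**
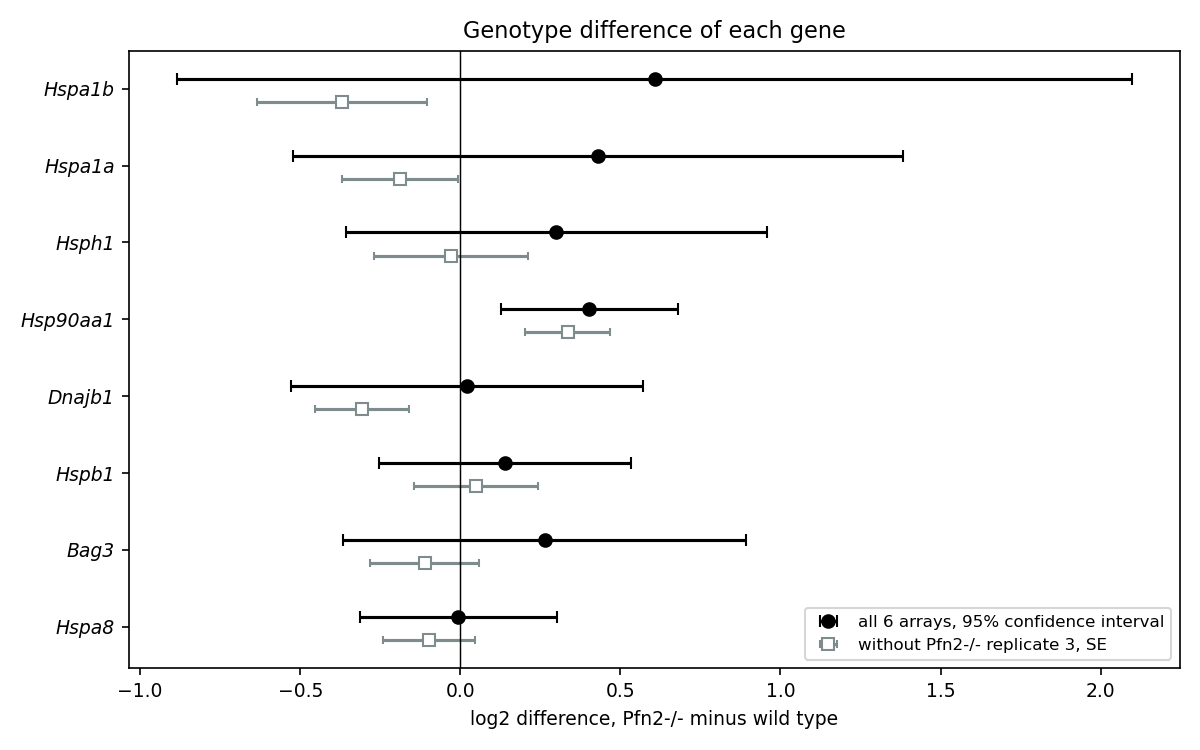
Genotype difference of each of the 8 genes on the log2 scale, Pfn2-/- minus wild type. Filled circles show the fit over all 6 arrays with the 95% confidence interval and open squares the fit without Pfn2-/- replicate 3 with the SE. The interval of Hsp90aa1, 0.13 to 0.68, is the 1 that leaves out 0, and for 5 of the 7 inducible genes the open square lies below 0.

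Over the 7 inducible genes all 7 differences were above 0, where 49.3% of all genes were, and their median was 0.30 against a median of 0.00 over all genes. Without Pfn2-/- replicate 3, 2 of the 7 (Hsp90aa1 and Hspb1) were above 0 and the median was -0.11, against 0.00 over all genes. No gene of the 22180 passed an adjusted p of 0.05 by limma, and 1174 had an unadjusted p under 0.05. In size, Pfn2-/- replicate 3 exceeded the highest of the other arrays by 1 or more in 13 genes, or 0.0586% of those tested, and Hspa1b and Hspa1a were 2 of these. Cdkn1a, a cell cycle inhibitor gene, was also among the 13, at a gap of 1.61. So were the acute-phase genes Saa2, Saa3 and Lcn2, at 1.39, 1.23 and 1.09. The clock gene Arntl at 1.20 and the mitochondrial protease gene Clpx at 1.05 were among them too. Hspa1b had the widest gap of the 13. The other arrays stood this far above the rest in 0 to 21 genes each.

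**Figure D3:**
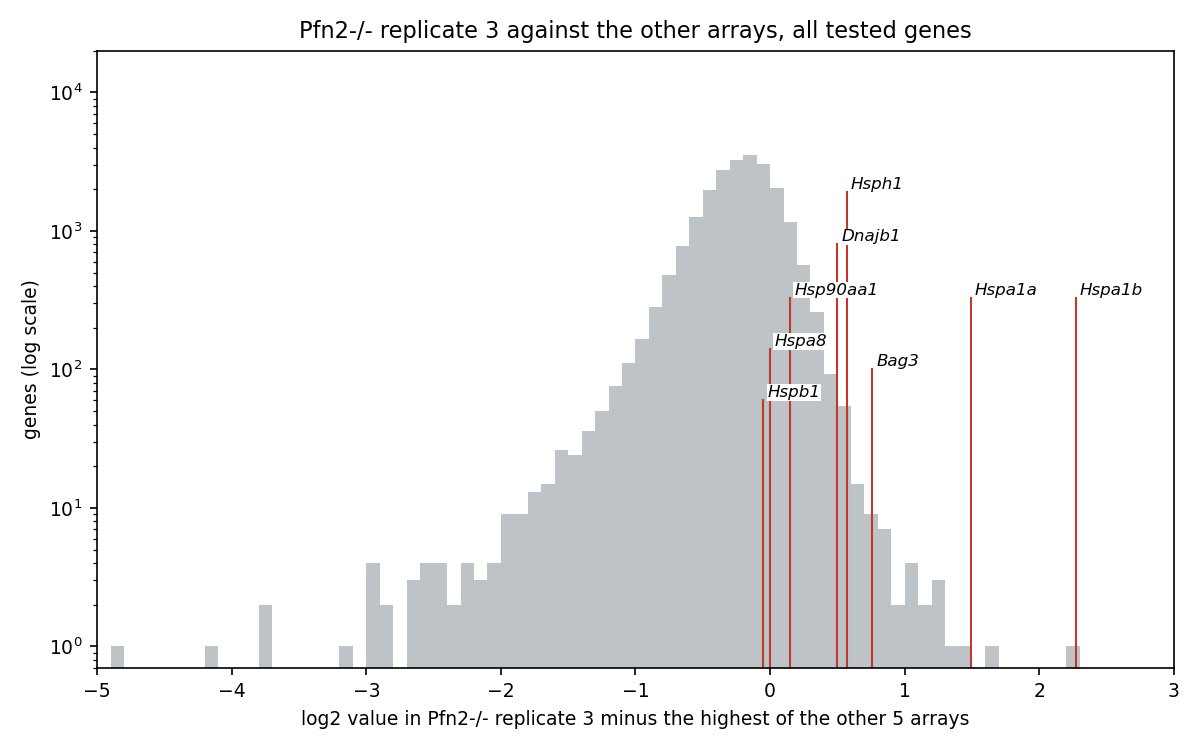
Distribution, over 22180 genes, of the log2 value in Pfn2-/- replicate 3 minus the highest of the other 5 arrays. The vertical axis counts genes on a log scale, and red lines mark the 8 heat shock and cochaperone genes. Hspa1b at 2.27 and Hspa1a at 1.49 lie in the far right tail, Bag3, Hsph1 and Dnajb1 lie between 0.50 and 0.76, and Hsp90aa1, Hspa8 and Hspb1 lie near 0.

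The further genes of the heat shock pathway gave calls in both directions, none of which passed over all genes. Of 16 measured further heat-inducible genes, 2 were higher in Pfn2-/- at an unadjusted p under 0.05 and 0 were lower, where 2.67% and 2.62% of all genes were. The 2 were Cryab, a small heat shock protein gene (0.36, SE 0.14), and Zfand2a, an arsenite- and heat-inducible zinc finger gene (0.35, SE 0.15). Chordc1, an Hsp90 cochaperone gene, lay at 8.05, 8.11 and 8.98 in Pfn2-/- replicates 1, 2 and 3 and at 7.96, 8.34 and 7.97 in wild type, so replicate 3 was 0.64 above the next array. It was the 1 gene of the 16 that reached a gap of 0.50 there, where 0.451% of all genes did so. Highest in that array were 7 of the 16, where 17.8% of all genes were. Stip1, which links Hsp70 to Hsp90, lay at 8.43 to 8.55 in Pfn2-/- and at 8.12 to 8.35 in wild type (0.27, SE 0.12, adjusted p = 0.92). The list's median difference was 0.11, and 0.08 without Pfn2-/- replicate 3.

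Among 23 further cochaperones of Hsp70 and Hsp90, 0 were higher and 1 was lower at an unadjusted p under 0.05, where 2.67% and 2.62% of all genes were, and the median was -0.04. That gene was Fkbp5, a glucocorticoid-induced Hsp90 cochaperone, at 5.35, 5.44 and 6.34 in Pfn2-/- replicates 1, 2 and 3 and at 7.37, 7.29 and 6.06 in wild type. Its difference was -1.20 (SE 0.36, adjusted p = 0.791), the groups overlapped, and replicate 3 of either genotype lay nearer to the other genotype. Hsf1, the gene of the inducing factor named above, was not analysed here. Of 6 measured genes of other heat shock factors and of their binding proteins none was called, where 5.29% of all genes were. Hsf2 lay at 6.85, 6.81 and 7.42 in Pfn2-/- replicates 1, 2 and 3 and at 6.68 to 7.03 in wild type. Hsbp1, which encodes a binding partner of HSF1, lay at 8.81 to 8.97 in Pfn2-/- and at 8.62 to 8.79 in wild type (0.18, SE 0.12). Of 5 other small heat shock protein genes 1 was lower at an unadjusted p under 0.05, where 2.62% of all genes were. It was Hspb7, at 4.39 to 4.61 in Pfn2-/- and at 4.81 to 5.01 in wild type (-0.41, SE 0.13, adjusted p = 0.814).

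Chaperones of other kinds and compartments were compared in the same way. Of 13 genes of the cytosolic chaperonin CCT and of prefoldin, which fold actin and tubulin, 0 were called at an unadjusted p under 0.05. Over all genes 5.29% were called in either direction. In Pfn2-/- replicate 3, 0 of the 13 stood 0.50 apart, where 0.451% of all genes were highest and 0.482% lowest by that much. Their mean relative to wild type was 0.00, -0.05 and -0.04 in Pfn2-/- replicates 1, 2 and 3. Of 9 mitochondrial chaperone and protease genes 0 were called, where 5.29% of all genes were. Clpx, the unfoldase subunit of a mitochondrial protease, lay at 8.08, 8.21 and 9.27 in Pfn2-/- replicates 1, 2 and 3 and at 7.91 to 8.22 in wild type, while Grpel2 was lowest there, at 6.11 against 6.65 to 7.21 in the other arrays. A list of 17 genes held chaperone and folding genes of the endoplasmic reticulum and also its stress response genes Ddit3 and Herpud1. The unfolded protein response induces many of these. Of the 17, 2 were higher at an unadjusted p under 0.05 and 0 were lower, where 2.67% and 2.62% of all genes were. They were Sdf2l1 (0.67, SE 0.17) and Manf (0.46, SE 0.18). Dnajb9, an inducible Hsp40 of that compartment, lay at 8.81, 8.62 and 10.05 in Pfn2-/- replicates 1, 2 and 3 and at 8.95 to 9.36 in wild type.

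Other gene groups also set Pfn2-/- replicate 3 apart, and their part in the heat shock values was not tested. A list of 18 acute-phase genes held mostly plasma protein genes that hepatocytes switch on in inflammation. In Pfn2-/- replicate 3, 12 of the 18 were highest, where 17.8% of all genes were. By 0.50 or more 4 of them were highest, where 0.451% of all genes were. The mean of the list relative to wild type was 0.65, -0.01 and 0.98 in Pfn2-/- replicates 1, 2 and 3, so replicate 1 was also high in this list while its mean over the inducible heat shock genes was -0.10. Saa2 lay at 10.83, 7.31 and 12.22 in Pfn2-/- replicates 1, 2 and 3 and at 6.76 to 7.80 in wild type. Lcn2 lay at 8.06, 6.81 and 9.15 in Pfn2-/- and at 6.65 to 7.07 in wild type. By genotype, 3 of the 18 were higher and 0 lower at an unadjusted p under 0.05, where 2.67% and 2.62% of all genes were. These were Saa3, Saa2 and Lcn2, and none passed over all genes. Saa3 lay at 6.95, 6.69 and 8.18 in Pfn2-/- replicates 1, 2 and 3 and at 6.07 to 6.16 in wild type. Its groups did not overlap (1.16, SE 0.32, limma adjusted p = 0.78).

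Of 16 circadian clock genes, 6 were highest and 8 were lowest in Pfn2-/- replicate 3. Over all genes 17.8% were highest there, and the share that was lowest was not computed. By 0.50 or more, 3 of the 16 were highest and 4 lowest, where 0.451% and 0.482% of all genes were. Arntl, an activator of the clock, lay at 5.61, 5.66 and 7.82 in Pfn2-/- replicates 1, 2 and 3 and at 5.42 to 6.62 in wild type. Dbp, an output gene of the clock, lay at 8.73, 9.06 and 6.06 in Pfn2-/- and at 8.31 to 8.47 in wild type. Nr1d2, a clock repressor, was 1.16 below the next array there and Per3 was 1.01 below. Without that array, the median difference of the clock list was 0.17, against -0.05 with it. Among 12 targets of p53, Cdkn1a lay at 5.27, 5.16 and 8.30 in Pfn2-/- replicates 1, 2 and 3 and at 5.60 to 6.69 in wild type, and no other target stood 0.50 above the rest there. Of 19 immediate early genes and 10 NRF2 targets, 0 stood 0.50 apart in that array. By genotype, 0 p53 targets were higher and 2 lower at an unadjusted p under 0.05, where 2.67% and 2.62% of all genes were. Among immediate early genes 0 were higher and 2 lower, and among NRF2 targets 2 were higher and 1 lower. The smallest p in each list was that of Plk3 (-1.02, SE 0.21), Jun (-0.65, SE 0.15) and Osgin1 (0.78, SE 0.13), in that order. None of these passed over all genes. Among the 16 clock genes 1 was higher and 0 were lower at an unadjusted p under 0.05. It was Npas2, at 4.24, 4.47 and 4.73 in Pfn2-/- replicates 1, 2 and 3 and at 3.74 to 4.04 in wild type. Its difference did not pass over all genes either (0.56, SE 0.15, limma adjusted p = 0.788). Fosb, an immediate early gene, lay at 3.79 to 4.21 in Pfn2-/- and at 3.90 to 4.07 in wild type.

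**Figure D4:**
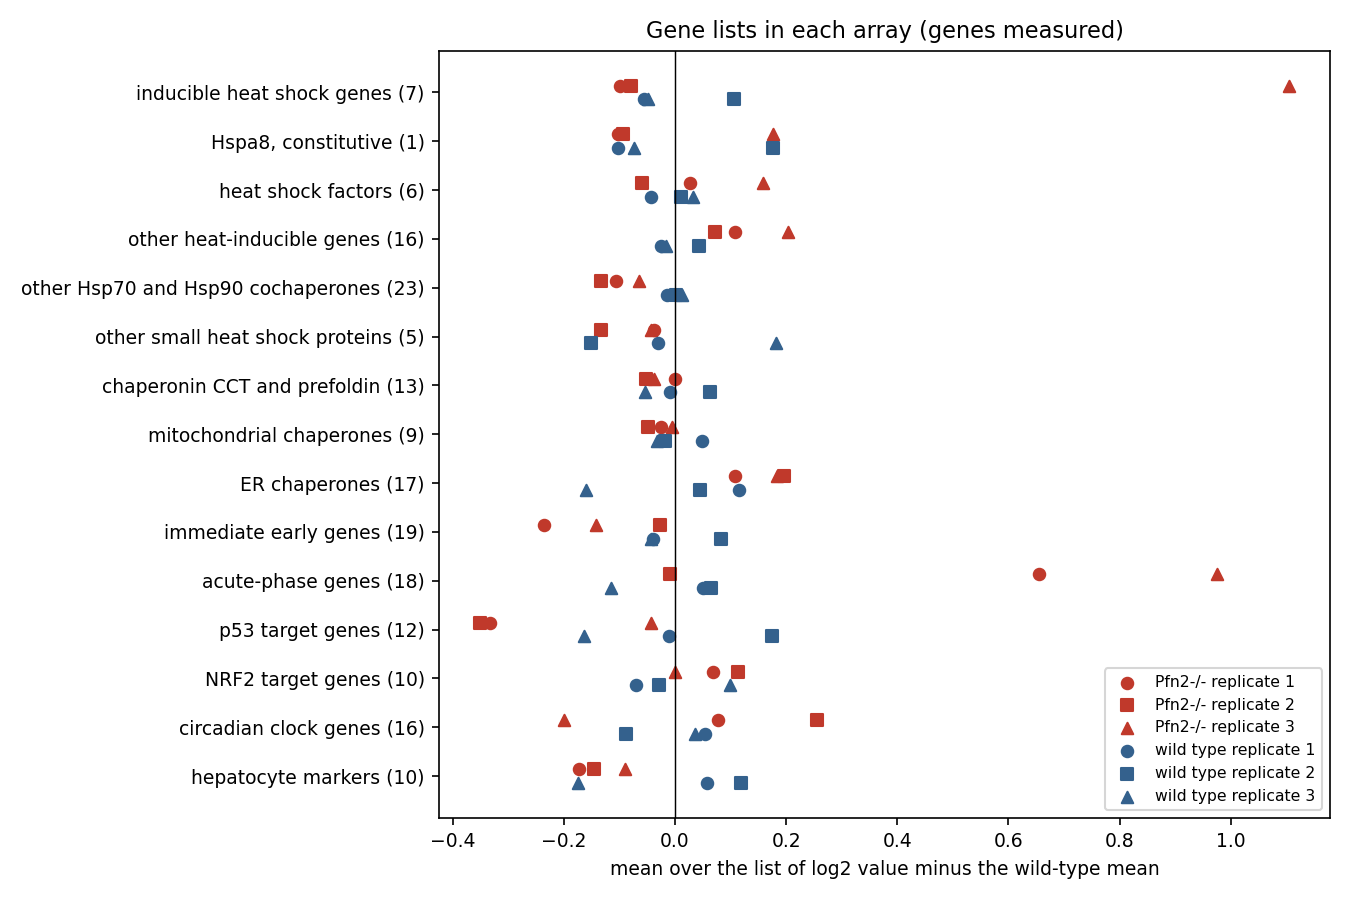
Mean of each gene list in each array, as log2 value minus the wild-type mean of the same gene, with the number of measured genes in parentheses. Red symbols are Pfn2-/- and blue symbols wild type, with circles, squares and triangles for replicates 1, 2 and 3. The inducible heat shock genes reach 1.11 in Pfn2-/- replicate 3, and the acute-phase genes are high in Pfn2-/- replicates 1 and 3, at 0.65 and 0.98.

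The pattern of Hspa1b over the 6 arrays was most like that of Pinx1, with Pearson r = 0.983, among 1099 genes outside the set that had a range of 1 or more. This measure mostly reflects the 1 high array, it is a description over 6 arrays, and a high r is easy to reach among so many genes. Pinx1, a telomerase inhibitor gene, lay at 5.90, 5.82 and 6.84 in Pfn2-/- replicates 1, 2 and 3 and at 5.96 to 6.14 in wild type. The next 9 genes, at r = 0.931 to 0.959, were Gm7969, Ints2, Gm10139, Gm5523, Dnajb9, Sebox, P4ha1, Cyp2c53-ps and Vmn2r95. All 10 were highest in Pfn2-/- replicate 3, by 0.49 to 1.17. Within the set, Bag3 (0.926), Hspa1a (0.907) and Dnajb1 (0.899) had the highest r with Hspa1b. The constitutive Hspa8 came next (0.756), above the inducible Hsph1 (0.734), Hsp90aa1 (0.537) and Hspb1 (0.317).

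The arrays had medians of 4.36 to 4.41 over 34390 rows, which RMA makes nearly equal, so the medians do not check the arrays. The mean Pearson r of an array with the others was lowest for Pfn2-/- replicate 3, at 0.9817. It was 0.9832 to 0.9851 for the other arrays. The 10 hepatocyte markers averaged 10.59 to 10.67 in Pfn2-/- and 10.59 to 10.88 in wild type, and Pfn2-/- replicate 3 was highest for 1 of them. Of the measured markers of macrophages, endothelium, stellate cells, bile duct, neutrophils, lymphocytes, red cells, fat and muscle, none stood 0.50 apart in Pfn2-/- replicate 3. The neutrophil markers averaged 3.95 to 4.13 in Pfn2-/- and 3.95 to 4.04 in wild type, and the 10 macrophage markers 7.34 to 7.44 in Pfn2-/- and 7.20 to 7.89 in wild type. Other marker lists lay apart between the genotypes or nearly so. The 5 measured bile duct markers were averaged relative to the wild-type mean. They averaged 0.14, 0.14 and 0.24 in Pfn2-/- replicates 1, 2 and 3 and -0.02 to 0.01 in wild type. At an unadjusted p under 0.05, 2 of 5 were higher, where 2.67% of all genes were. These were Sox9 (0.58, SE 0.20) and Cftr in a dim row (0.33, SE 0.13). Krt19, Krt7 and Epcam differed by 0.05, 0.02 and -0.10. On the same scale, the 8 stellate cell and fibroblast markers averaged -0.176 to -0.135 in Pfn2-/- and -0.136 to 0.095 in wild type. At that threshold 2 of 8 were lower, where 2.62% of all genes were. The part of these cells in the values of Hsp90aa1 was not tested. In whole tissue, a change in the number of cells of a type and a change in RNA per cell cannot be told apart. Pfn2 itself lay at 3.88, 3.81 and 3.93 in Pfn2-/- and at 4.02, 3.85 and 4.09 in wild type, a dim row that does not check the genotype labels.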

How the data were processed

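Total RNA of 6 livers was labelled with biotin and measured on Affymetrix arrays, per the labels' protocols. The authors deposited log2 expression values, and RMA and limma are named per the submitters' processing notes, with versions not given in the sources used here. RMA equalises arrays to each other, so shifts common to all genes are removed and dim rows are compressed. Of 34390 rows, 23521 had exactly 1 symbol in the platform annotation, which gave 22180 genes. A two-sided limma fit (version 3.58.1, R 4.3.3, lmFit and eBayes without trend) with genotype as the sole term was made on all genes at once, with Benjamini-Hochberg adjustment across them. The fit was tested on simulated data. Arrays give no read depth, and their number limits the precision.

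The heat shock genes and gene lists were chosen with earlier results of these data known. Of 269 listed symbols, 242 were matched, 1 through a synonym. Named genes are the 8 measured genes, from each list up to 4 of smallest p and up to 4 standing farthest apart in Pfn2-/- replicate 3, and the 10 most like Hspa1b. Motifs were searched in RefSeq promoter windows of GRCm38.p6. The alternatives were median centring, repeated quantile normalization, cyclic loess, filters on dim genes, averaging rows, eBayes with trend or robust, array weights, a replicate block and each array left out.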

Additional observations from a re-analysis of the deposited data

How the results depend on the processing

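Of 126 values of the 8 genes under the alternatives, 0 passed the adjusted threshold (adjusted p 0.533 to 1) and 10 changed sign, 9 of them by leaving out an array. With one array left out, the difference was -0.37 to 1.20 for Hspa1b, -0.19 to 0.82 for Hspa1a, -0.11 to 0.50 for Bag3, -0.0283 to 0.61 for Hsph1 and -0.31 to 0.20 for Dnajb1, in each of which the lowest value came without Pfn2-/- replicate 3. It was 0.02 to 0.35 for Hspb1 and -0.0983 to 0.0817 for Hspa8, the sole constitutive gene measured. With array weights Dnajb1 was -0.0616, Hsph1 0.13, Hspa1a 0.27 and Hspb1 0.03, Hspb1 was 0.04 with its rows averaged, and the cause was not tested. For Hsp90aa1 the unadjusted p stayed under 0.05 in all 16 alternatives (difference 0.34 to 0.47, limma adjusted p 0.533 to 0.999). The alternatives reuse the same 6 arrays, and the share of all genes that stayed under 0.05 throughout was not computed. The median of the inducible genes was -0.11 to 0.47 with one array left out, and Hspa1b minus Hspa8 was -0.27 to 1.16. The genes of the set at an unadjusted p under 0.05 numbered 1 to 3, with Hsph1 and Hspb1 beside Hsp90aa1 without Pfn2-/- replicate 1, where 2.16% of all genes were called higher. Over all genes 0 to 6 passed the adjusted threshold with one array left out, and 2 with array weights. A replicate block gave 7, with none of the set. The labels give same-numbered arrays a shared number and age. Their deviations from the genotype means correlated at -0.08, 0.15 and 0.02 in replicates 1, 2 and 3. With 3 arrays per genotype this cannot decide whether they share more. The count highest in Pfn2-/- replicate 3 was 6 or 7 under 4 alternatives added after seeing the data, and the median of the inducible genes was 0.30 when the row naming both Hspa1a and Hspa1b was added.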

Other observations

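Rows that name a heat shock gene together with another gene enter no comparison. The row naming Dnaja1, an Hsp40 that is both constitutive and heat-inducible, and Mir207 lay at 7.55, 7.37 and 7.96 in Pfn2-/- replicates 1, 2 and 3 and at 7.43, 7.67 and 7.38 in wild type. Pfn2-/- replicate 3 was thus its highest array, by 0.29. The row naming Hspa8 and Snord14e, a small nucleolar RNA, lay at 7.26, 7.59 and 8.24 in Pfn2-/- and at 7.41, 7.79 and 7.65 in wild type, with replicate 3 of Pfn2-/- the highest by 0.45. The row of Hspa8 alone that was kept had a gap of 0. The row naming both Hspa1a and Hspa1b lay at 3.83, 3.42 and 3.96 in Pfn2-/- and at 3.82, 3.32 and 3.18 in wild type, close to the lower quartile of all rows, and did not show the step of 2.27 seen in the row of Hspa1b.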
